A study of Homo sapiens with 8 samples.

Results

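Acetylation of lysine 27 of histone H3 (H3K27ac), which marks active promoters and enhancers, was examined at 10 genes that define whether a cell is epithelial or mesenchymal. The epithelial genes were CDH1, EPCAM, KRT8, KRT18 and KRT19, and the mesenchymal genes were CDH2, VIM, ZEB1, SNAI2 and FN1. The genes were chosen by name, and their regions by position: the peaks of all 6 lists were merged where they overlapped by at least 1 bp, and every merged region touching a gene body or the 20 kb on either side of it was kept. This gave 48 of 49186 merged regions, 26 around epithelial and 22 around mesenchymal genes.

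The lists came from ChIP-seq of A549 cells, an established lung adenocarcinoma line in which NRF2, a transcription factor of the antioxidant response, is persistently active. All cells were cultured in the same medium and harvested 48 hours after transfection with control siRNA (3 libraries) or NRF2 siRNA (3 libraries). The NRF2 siRNA was number 28 in replicate 1 and number 30 in replicates 2 and 3. The 2 input DNA samples were not analysed here, and the study calls the libraries biological replicates. The comparison asks which of the 2 identities the H3K27ac deposition of A549 cells shows, and whether it moved when NRF2 was knocked down.

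Epithelial cells adhere through E-cadherin (CDH1) at their junctions, and their cytoskeleton is built from keratins, among them the partners keratin 8 and keratin 18. Mesenchymal cells use N-cadherin (CDH2) and the filament protein vimentin (VIM), and lay down fibronectin (FN1). In the epithelial to mesenchymal transition, repressors such as ZEB1 and SNAI2 bind E-box sequences at epithelial promoters, CDH1 among them, and lower their transcription, while mesenchymal genes are turned on.

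The lists differed in length, from 27941 to 41571 peaks in control siRNA and from 23885 to 39108 in NRF2 siRNA libraries, and 41 of the 48 regions were called in control replicate 3 against 20 in NRF2 siRNA replicate 1. Of the 13 regions called in a single library, 8 were called in control replicate 3, the longest list. The lists hold no read counts, and calls, widths and list length can follow read depth as well as acetylation. Each value is given as a percentile: the share of peaks in the same list with a lower fold enrichment than the strongest peak of the region. A percentile still follows list length, since a region of the same rank from the top stands lower in a shorter list. Peak names of replicates 2 and 3 carry a flow cell identifier that replicate 1 lacks, and siRNA 28 was used in replicate 1 alone. The study also lists fewer reads for the replicate 1 libraries. Effects of flow cell, read number and siRNA cannot be told apart, and the calls missing in replicate 1 carry this limit. As a check of the labelled tissue, the start of KRT7, a keratin of lung epithelium, was called in all 6 libraries in a region that also holds the start of KRT86, whereas those of the lung genes NAPSA, NKX2-1 and SFTPB were called in 0. Of the markers of other cell types, 0 of 3 leukocyte genes, 0 of 2 endothelial genes and 1 of 4 fibroblast genes (COL1A1, in control and NRF2 siRNA replicate 3) had a called start. The NRF2 gene itself, NFE2L2, had a start region at percentiles from 97.9 to 98.2 in control and from 94.6 to 97.9 in NRF2 siRNA libraries. The siRNA acts on the mRNA, so this does not check the knockdown. The start of NQO1, a known NRF2 target, lay at percentiles of 99.3, 99.1 and 99.4 in control and 95.1, 87.2 and 94.5 in NRF2 siRNA libraries (score change -0.94 ± 0.23 SE, limma adjusted p = 0.051, and 0.022 with the replicate block).

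The promoters over which the acetylation lay are shown for 3 of the genes whose starts were called in all 6 libraries: the alternative EPCAM start, which carried the acetylation of that gene, and the starts of VIM and ZEB1, the acetylated ones among the mesenchymal genes. Each was read from GRCh37 upstream of a transcript start, over 300 bases or, for ZEB1, the longest part of them that holds no untranslated region of a coding transcript. Capitals mark the E-boxes CAGGTG and CACCTG, which are each other's reverse complement and are the sequence that repressors of epithelial genes recognize.
EPCAM, alternative start (chr2:47571997-47572296, plus strand): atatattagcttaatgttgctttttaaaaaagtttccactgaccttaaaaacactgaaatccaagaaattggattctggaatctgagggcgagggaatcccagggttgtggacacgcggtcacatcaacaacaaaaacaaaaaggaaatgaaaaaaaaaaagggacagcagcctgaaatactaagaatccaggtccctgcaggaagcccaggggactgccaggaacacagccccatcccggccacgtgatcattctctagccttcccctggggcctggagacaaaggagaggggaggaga
VIM (chr10:17269940-17270239, plus strand): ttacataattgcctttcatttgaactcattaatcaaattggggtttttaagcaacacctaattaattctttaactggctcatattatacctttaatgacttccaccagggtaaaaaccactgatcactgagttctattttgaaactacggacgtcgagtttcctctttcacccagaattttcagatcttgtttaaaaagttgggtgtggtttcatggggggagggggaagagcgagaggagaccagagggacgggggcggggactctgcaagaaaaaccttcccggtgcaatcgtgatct
ZEB1 (chr10:31607845-31608053, plus strand): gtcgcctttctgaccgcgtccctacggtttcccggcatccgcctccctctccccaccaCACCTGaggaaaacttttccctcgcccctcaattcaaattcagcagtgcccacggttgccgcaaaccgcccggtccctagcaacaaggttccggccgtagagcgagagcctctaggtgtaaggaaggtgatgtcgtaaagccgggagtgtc

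The windows at the alternative EPCAM start and at VIM held 0 E-boxes, and the full 300 bases at ZEB1 held 2. Of 19528 promoters of the same length, 21.0% held at least 1 E-box. The NRF2 element TGACNNNGC, searched on both strands, was found in 0 of the 3 windows and in 13.1% of all promoters. These matches describe the letters of the 3 windows only and say nothing of the promoters of the other genes. The VIM promoter was also poor in G and C, at 42.7% of its bases, against a median of 62% over all promoters.

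At gene starts, the epithelial genes ranked higher than the mesenchymal ones, though VIM and ZEB1 were also acetylated. A start region, the merged region that covers the start of a coding transcript, was called in all 6 libraries at 4 of 5 epithelial genes (CDH1, EPCAM, KRT8 and KRT18) and at 2 of 5 mesenchymal genes (VIM and ZEB1), against 38.5% of 20149 coding genes. The median percentile over the 5 epithelial genes, a gene with no called start counted as 0, was 96.3, 97.4 and 98.0 in control replicates 1, 2 and 3, and that over the 5 mesenchymal genes was 0, 38.0 and 56.4. Epithelial exceeded mesenchymal by 65.8 ± 27.9 percentile points with control siRNA and by 70.3 ± 19.7 points after NRF2 siRNA (SD, n = 3 each), and was the higher in all 6 libraries. The spread came from the mesenchymal side, where the median equalled the value of the FN1 start in every library. That start was not called in replicate 1 of either group and counted as 0 there. SNAI2, called in control replicate 3 alone, lay below the median. The size of the difference thus rests on FN1 and on the 0 given to uncalled starts. With canonical starts alone, the control difference was 63.4 points, and 3 of 5 epithelial and 2 of 5 mesenchymal starts were called in all 6 libraries.

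**Figure D1:**
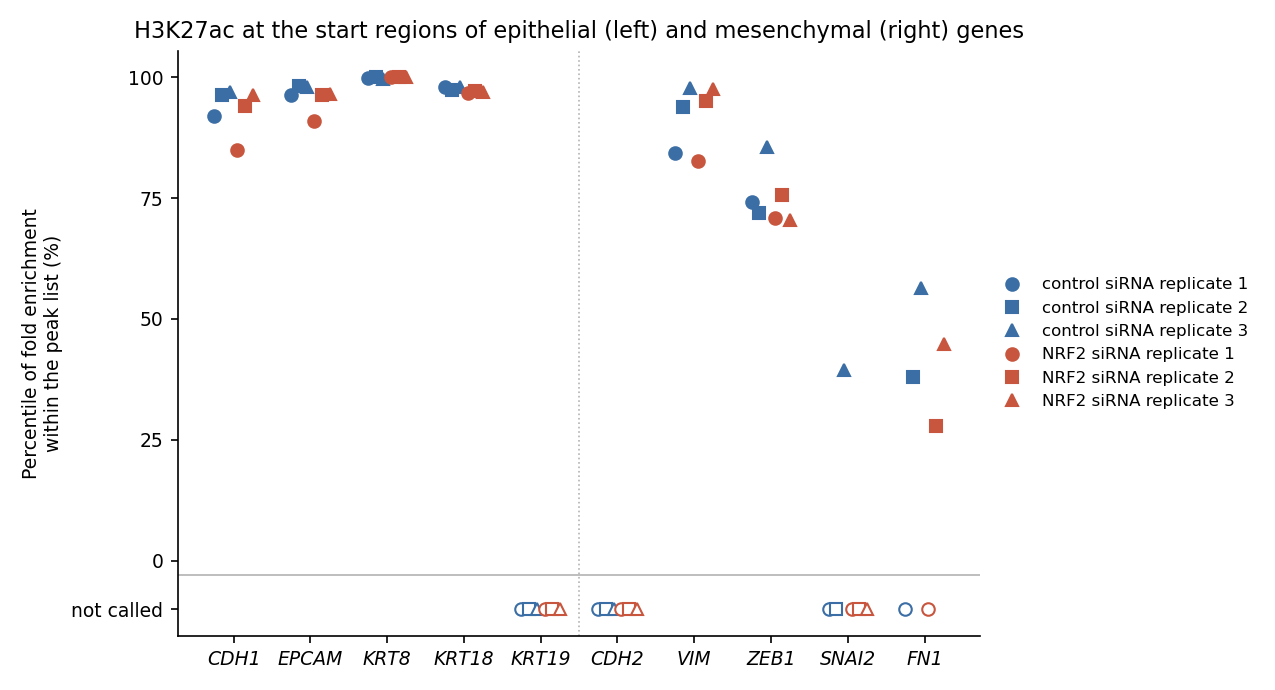
Percentile of fold enrichment within each peak list (y axis, percent) at the start region of each epithelial (left) and mesenchymal (right) gene; each point is 1 of 6 libraries, and open points at the bottom stand for libraries with no peak there. The 4 called epithelial starts lie at 85.01 or above in all 6 libraries, VIM between 82.7 and 97.8, and ZEB1 between 70.4 and 85.5.

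The keratin 8 and keratin 18 genes, which lie back to back on chromosome 12, held the strongest start of the 10 genes and the widest regions. The highest region, chr12:53314286-53325983, is 11698 bp wide, lies within the KRT8 gene record and covers an alternative KRT8 start, with its near edge 15426 bp from the canonical one. Its percentiles were 99.83, 99.97 and 99.73 in control replicates 1, 2 and 3 and 99.99, 99.98 and 99.98 in the NRF2 siRNA replicates. It was thus among the strongest peaks of every list, at rank 48, 12 and 113 from the top in control and rank 4, 8 and 10 in NRF2 siRNA libraries. All 3 NRF2 siRNA values lay above all 3 control values, by a narrow margin over control replicate 2, and the score change of 0.53 ± 0.23 (SE) did not pass the test (limma, adjusted p = 0.22).

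The canonical KRT8 start lay in chr12:53258941-53304841, a region of 45901 bp that was wider than 99.9% of all merged regions. Within it the peaks covered 31493, 33387 and 45901 bp in control and 20480, 29709 and 34935 bp in NRF2 siRNA libraries. Its percentiles were 95.2, 97.4 and 96.3 in control and 90.9, 92.7 and 95.4 in NRF2 siRNA libraries, with a change in score of -0.26 (limma, adjusted p = 0.48). The KRT18 start region, chr12:53334053-53353003, spans 18951 bp, touches both genes and also holds a distant KRT8 start. It stood at 97.9, 97.4 and 98.0 in control and 96.7, 97.2 and 97.0 in NRF2 siRNA libraries, all 3 below the lowest control percentile. The rank scores overlapped, at 2.11, 1.92 and 1.95 in control and 1.99, 1.90 and 1.81 in NRF2 siRNA libraries. Its score change was -0.09 (limma, adjusted p = 0.82). An intergenic region next to it, chr12:53356195-53375425, spans 19231 bp and was as strong, between 98.2 and 99.1 in control and 94.5 and 98.1 in NRF2 siRNA libraries.

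CDH1, the gene of E-cadherin (ENSG00000039068), had 9 regions, 6 of them called in all 6 libraries. Its start region, chr16:68769949-68781882, is 11934 bp wide, covers the canonical start and runs into the first part of the gene. Percentiles there were 92.0, 96.3 and 96.9 in control and 85.01, 94.0 and 96.4 in NRF2 siRNA libraries. Each NRF2 siRNA library stood below the control library of its number, but the groups overlapped (score change -0.17 ± 0.21 SE, limma adjusted p = 0.69). An intronic region of 9041 bp, chr16:68819974-68829014, lay 48779 bp into the gene and was as strong as the start, at 93.0, 95.5 and 97.5 in control and 85.5, 92.8 and 96.9 in NRF2 siRNA libraries. Closer to the start, the intronic region chr16:68785669-68791459 was weaker, at 50.1, 46.6 and 61.9 in control and 3.72, 37.4 and 41.4 in NRF2 siRNA libraries. Its rank from the top was 13949, 18548 and 15843 in control and 22996, 21887 and 22936 in NRF2 siRNA libraries. The low percentile in NRF2 siRNA replicate 1 thus goes with the shortest list. Those groups did not overlap, yet the change of -0.40 ± 0.20 (SE) missed the threshold (limma, adjusted p = 0.28). A region at the far end of the window covers the start of the neighbouring gene TANGO6.

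EPCAM encodes an epithelial adhesion molecule and is a common surface marker of carcinoma cells. Its acetylation lay at the alternative start in chr2:47569661-47574963, which begins outside the gene record in the lncRNA gene EPCAM-DT and ends 21487 bp from the canonical start. There the percentile reached 96.3, 98.1 and 98.1 in control and 90.9, 96.2 and 96.5 in NRF2 siRNA libraries (score change -0.29 ± 0.19 SE, limma adjusted p = 0.43). No region covered the canonical start, and the nearest one was a peak of 286 bp, 234 bp away, called in control replicate 1 alone at a percentile of 22.1. Between the starts, the intronic region chr2:47580826-47585183 stood at 8.54, 60.1 and 60.7 in control and at 26.98, 79.8 and 81.9 in NRF2 siRNA libraries, higher in each pair but short of the threshold (score change 0.64 ± 0.28 SE, limma adjusted p = 0.22). A second intronic region, chr2:47587543-47588990, was not called in replicate 1 of either group and stood at 16.5 and 18.9 in the other control and 54.05 and 44.2 in the other NRF2 siRNA libraries (score change 0.93 and 0.85 in these pairs).

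KRT19, a keratin of simple epithelia, had no region at its start in any library. Its strongest acetylation lay 12021 bp upstream, in a region of 9838 bp that overlaps the lncRNA gene LINC00974 (chr17:39696581-39706418). Percentiles there were 86.9, 98.4 and 98.5 in control and 98.0, 98.3 and 97.2 in NRF2 siRNA libraries. The gene has 5 pseudogene records in the annotation, KRT8 has 51 and KRT18 has 68, and reads of low mapping quality were dropped by the authors. Whether this left the KRT19 start without peaks was not tested. Downstream, a region covers the start of the neighbouring keratin gene KRT15.

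VIM carried acetylation at its start in every library, in chr10:17268758-17273362, which spans 4605 bp. Vimentin's start had percentiles of 84.2, 93.8 and 97.8 in control and 82.7, 95.0 and 97.6 in NRF2 siRNA libraries, so the groups overlapped (score change 0.05 ± 0.27 SE, limma adjusted p = 0.94). In control libraries the value was below that of CDH1 in replicates 1 and 2 and above it in replicate 3. ZEB1, a repressor of CDH1, had a start region of 3046 bp, chr10:31606970-31610015, with percentiles of 74.1, 72.0 and 85.5 in control and 70.8, 75.6 and 70.4 in NRF2 siRNA libraries (score change -0.12 ± 0.22 SE, limma adjusted p = 0.80). The other 2 regions near ZEB1 were each called in a single library.

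FN1 was acetylated inside the gene more than at its start. The region chr2:216273740-216287016, 13277 bp wide and 13775 bp from the start, covers exons of the gene and stood at 85.9, 96.8 and 97.5 in control and 74.2, 96.5 and 97.7 in NRF2 siRNA libraries. The start region, chr2:216299955-216302495, was not called in replicate 1 of either group. In replicates 2 and 3 its percentiles were 38.0 and 56.4 in control and 27.9 and 44.8 in NRF2 siRNA libraries (score change -0.24 in each of these pairs). Pair 1, with no peak in either library, added 0.25 to the fit, which is the difference between the tied scores of uncalled regions in its lists (-1.09 and -0.84), and the fitted change is therefore not read here. A further exonic region, chr2:216260532-216264061, was called in all 3 control libraries, at 24.6, 32.6 and 35.8, and in NRF2 siRNA replicate 3 alone, at 14.1. These values did not overlap, and the score change of -0.79 ± 0.26 (SE) missed the threshold without the replicate block and passed it with the block (limma, adjusted p = 0.11 and 0.048). NRF2 siRNA replicates 1 and 2, which were uncalled, entered at tied scores of -0.84 and -1.63. Replicate 3, which was called, stood at -1.26, below the uncalled replicate 1. The size of this change and its call with the block therefore carry the same limit as at the start region.

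CDH2 and SNAI2 held few and weak peaks. CDH2 had 7 regions, all intronic and none called in all 6 libraries, and the nearest of them lay 48280 bp from its start. Its percentiles where called ran from 5.68 to 32.0, and neither replicate 1 library had a peak in the gene or its flanks. SNAI2, a repressor of CDH1 like ZEB1, had a start region of 325 bp called in control replicate 3 alone, at a percentile of 39.4, and a weaker region that 2 control libraries called. The 3 NRF2 siRNA libraries had 0 peaks within 20 kb of SNAI2, which is a limit of detection in lists of this kind and does not show that the mark was absent.

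Placed in order of the control mean, the start percentiles ran from KRT8 (99.8 ± 0.12) through KRT18 (97.8 ± 0.33), EPCAM (97.5 ± 1.01), CDH1 (95.1 ± 2.64) and VIM (92.0 ± 6.98) to ZEB1 (77.2 ± 7.28; SD, n = 3 each), followed by FN1, SNAI2 and, with no call, KRT19 and CDH2. The ranges of neighbours from KRT18 to VIM overlapped over the control libraries. At its canonical start KRT8 had a mean of 96.3 ± 1.10 (SD, n = 3), which falls below KRT18 and EPCAM in this order. KRT8 (at its alternative start) lay above KRT18, EPCAM above CDH1 and ZEB1 below VIM in every control library, although of these the ranges of EPCAM and CDH1 and of ZEB1 and VIM overlapped. As a scale, the median percentile of all called gene starts was 63.5, 66.7 and 74.6 in control replicates 1, 2 and 3.

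Around the genes, epithelial windows also held more regions, and the widest ones lay at KRT8 and KRT18. Of the 26 epithelial regions 15 were called in all 6 libraries, and of the 22 mesenchymal regions 3 were. Together these were 18 of 48 regions (37.5%), near the 34.2% of all merged regions. Regions of at least 10 kb were 6 of 48 (12.5%), 5 epithelial and 1 mesenchymal, against 3.98% of all merged regions. All of the epithelial ones but the CDH1 start region (11934 bp) lay side by side at KRT8 and KRT18. The mesenchymal one, in FN1, was wider than that of CDH1, at 13277 bp. The split is therefore mostly that of 1 locus. By position, 12 of the 48 regions covered a coding start, 3 of them the start of a neighbouring gene, 18 were intronic, 4 touched an exon, 6 lay in lncRNA genes and 8 between genes. The share of the window inside peaks was 66.0% ± 11.9 for KRT8 with control siRNA and 51.9% ± 12.9 after NRF2 siRNA (SD, n = 3 each), lower with NRF2 siRNA in each of the 3 pairs. The total length inside peaks over the genome was also lower in each pair, by a margin that was small in pair 2 (84.97 against 84.77 Mb), and its part in the KRT8 difference was not tested. For CDH1 the share was 20.8% ± 4.71 and 18.0% ± 6.81 in the same order. For CDH2 it was 0.69% ± 0.96 and 1.44% ± 1.25, and for ZEB1 1.01% ± 0.41 and 0.98% ± 0.48 (SD, n = 3 each). The gene bodies of CDH2 and ZEB1 span 245 and 211 kb, so peaks of a given width fill less of their windows. The share did not separate all genes by identity. With control siRNA it was 12.2% ± 2.83 for EPCAM, below VIM (13.4% ± 5.41) and FN1 (13.5% ± 4.17). It was 22.2% ± 7.65 for KRT19 and 1.13% ± 1.40 for SNAI2 (SD, n = 3 each).

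**Figure D2:**
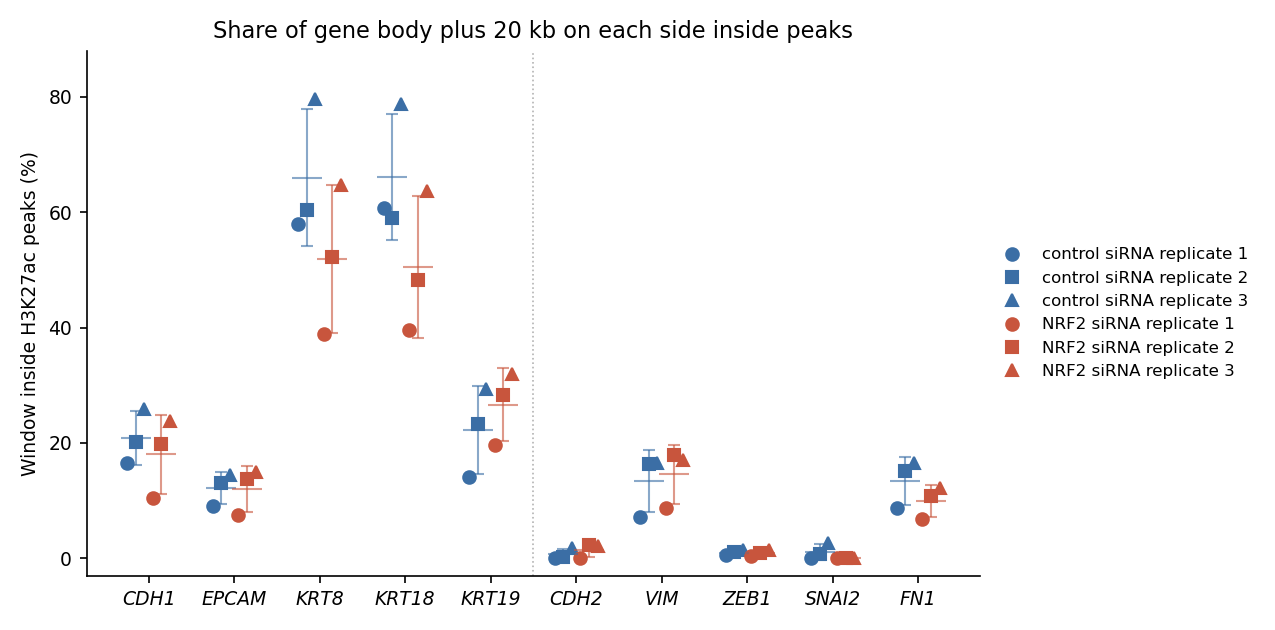
Share of each gene's window (gene body plus 20 kb on each side) that lies inside H3K27ac peaks (y axis, percent); points are the 6 libraries, in the order of the epithelial and then the mesenchymal genes. KRT8 and KRT18, whose windows overlap, stand far above the others, and CDH2, ZEB1 and SNAI2 lie near 0.

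To compare the groups, the 32673 regions called in at least 3 libraries were ranked within each library by fold enrichment, the ranks were turned into normal scores, and the scores were compared with limma. A score change of 1 is 1 unit of the standard normal scale on which the ranks were placed. Uncalled regions of a library share a tied score, so this unit is not exactly the SD of the scores within a library. In bulk chromatin, fewer cells with the mark and less of it per cell cannot be told apart. Of the 48 regions 28 passed the filter on calls, 19 epithelial and 9 mesenchymal, and 20 did not. With NRF2 siRNA, 2 of the 28 rose past the threshold (7.14%, against 2.01% of all regions tested) and 0 fell (against 3.39% of all). At an unadjusted p under 0.05 there were 6 of 28 (21.4%), near the 22.5% of all regions. With the replicate block, 1868 of all regions rose and 2164 fell in place of 657 and 1108, and 2 member regions rose and 1 fell. The 1 that fell was the FN1 exonic region, whose fit holds tied scores of uncalled NRF2 siRNA libraries. The median change was -0.09 over the epithelial and -0.01 over the mesenchymal regions, against 0.02 over all regions. Some regions of both kinds were uncalled in both replicate 1 libraries, and pair 1 adds 0.25 to their fit, as at the FN1 start. The mesenchymal median falls on such a region, in CDH2, with 0.25, -0.01 and -0.28 in pairs 1, 2 and 3, so its size is not read here. Scores of the groups did not overlap, with NRF2 siRNA higher, in 5 of 28 (17.9%, against 14.6% of all) and, with NRF2 siRNA lower, in 4 of 28 (14.3%, against 13.6% of all). Those 4 were the canonical KRT8 start, the EPCAM start, the weaker CDH1 intronic region and the FN1 exonic region. The 5 were the alternative KRT8 start, the KRT19 and VIM upstream regions, the second EPCAM intronic region and the CDH2 intronic region chr18:25692173-25696177. In this EPCAM region and this CDH2 region NRF2 siRNA replicate 1 was uncalled, and its tied score of -0.84 lay above every control score. A library with no peak there thus counted as higher than control libraries with one. Among the 48 regions, 0 were called in all 3 control and 0 NRF2 siRNA libraries (against 2.27% of all regions) and 0 in all 3 NRF2 siRNA and 0 control libraries (against 0.83%). The shares of regions with no overlap were near the background. Of the 2 regions that rose, 1 was near an epithelial and 1 near a mesenchymal gene.

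**Figure D3:**
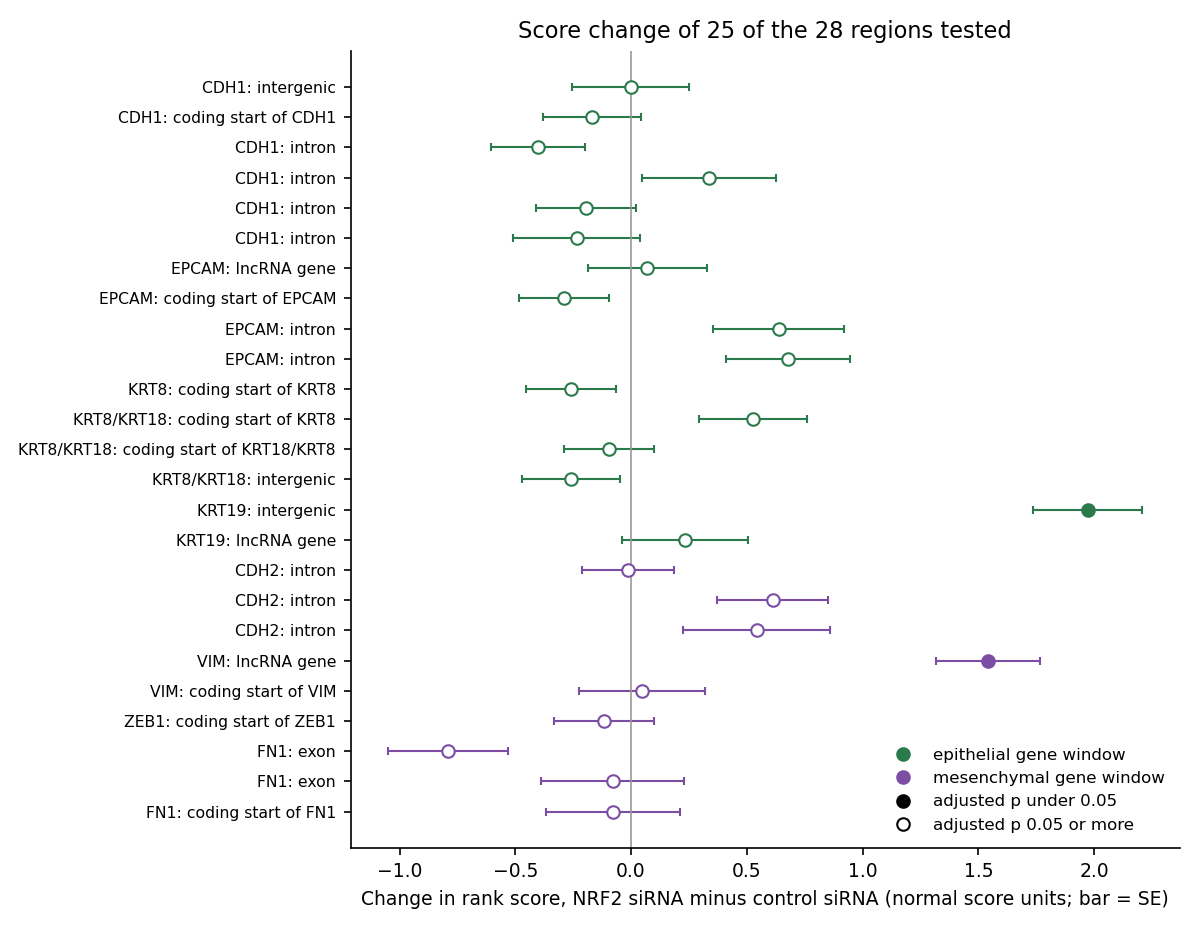
Change in rank score with NRF2 siRNA (x axis, normal score units; points are the fitted change and bars its SE) for 25 of the 28 regions tested, all but the 3 over starts of neighbouring genes, in the windows of epithelial (green) and mesenchymal (purple) genes. The KRT19 upstream region, at 1.97, and the VIM upstream region, at 1.54, stand apart, and the others drawn lie between -0.79 and 0.68.

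The region that rose most was chr17:39685435-39687668, an intergenic stretch of 2234 bp whose near edge is 875 bp upstream of the KRT19 start. It was not called in control replicate 1 and stood at percentiles of 10.4 and 8.58 in control replicates 2 and 3, against 66.5, 84.3 and 73.6 in the NRF2 siRNA replicates. All 3 NRF2 siRNA libraries lay above all 3 control libraries. Its peaks covered 1714 and 615 bp in control replicates 2 and 3 and 1381, 1907 and 2197 bp in the NRF2 siRNA replicates. The score rose by 1.97 ± 0.24 (SE; limma, adjusted p = 0.007), and by 1.86, 2.01 and 2.04 in pairs 1, 2 and 3. Control replicate 1, which was uncalled, entered at the tied score of -1.09, above the called control replicate 3 at -1.55. The size of the change in pair 1 is therefore set in part by that tie. Without control replicate 1 the change was 2.03 (limma, adjusted p = 0.032). The call was lost without control replicate 2 (adjusted p = 0.070) or control replicate 3 (adjusted p = 0.065), 2 fits in which no region of the genome passed.

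The other was chr10:17255092-17259430, a region of 4339 bp that lies 10810 bp upstream of the VIM start inside the antisense lncRNA gene VIM-AS1. It was not called in control replicate 1 and stood at 10.9 and 29.1 in control replicates 2 and 3, against 32.5, 77.7 and 79.1 in the NRF2 siRNA replicates. The lowest NRF2 siRNA percentile, from replicate 1, was only just above the highest control percentile, while the other 2 were far above it. The lists differ in length, and in rank score NRF2 siRNA replicate 1 stood at 0.17 against -0.92 for the highest control library. The score rose by 1.54 ± 0.22 (SE; limma, adjusted p = 0.010), and by 1.26, 1.76 and 1.61 in pairs 1, 2 and 3. The uncalled control replicate 1 entered at the tied score of -1.09 here too, so the size in pair 1 carries the same limit as at KRT19. Without control replicate 1 the change was 1.49 (limma, adjusted p = 0.044). The call was lost without control replicate 2 (adjusted p = 0.091), control replicate 3 (adjusted p = 0.083) or NRF2 siRNA replicate 2 (adjusted p = 0.061). The VIM start region changed by 0.05 in the same fit.

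**Figure D4:**
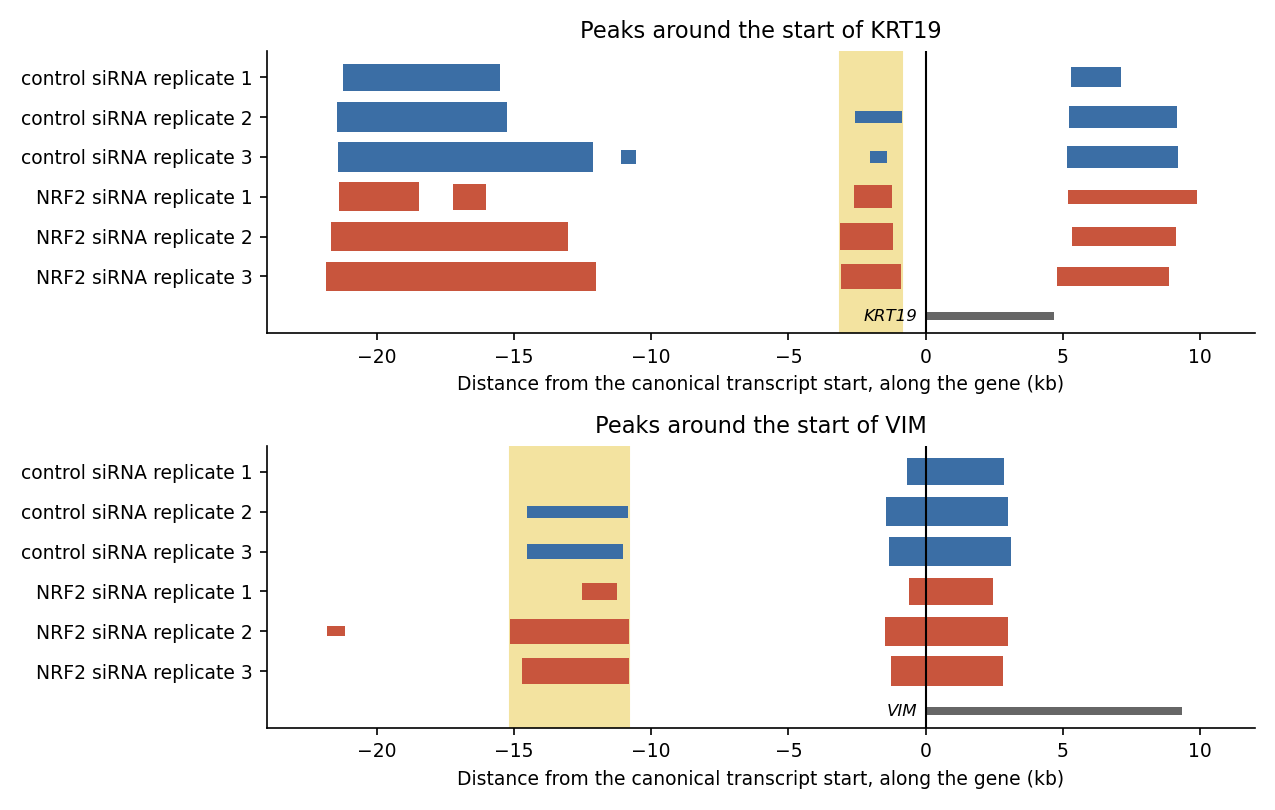
H3K27ac peaks around the starts of KRT19 and VIM in each of the 6 libraries (rows), by distance from the canonical start along the gene (x axis, kb); thicker bars have a higher percentile in their list, grey bars mark the gene, and shading marks the region that changed. In the shaded regions the NRF2 siRNA libraries hold peaks at percentiles from 32.5 to 84.3, and control replicate 1 holds none.

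The centres of these 2 regions are shown because they are where the groups differed. Each is 300 bases of GRCh37 at the middle of the stretch that all 3 NRF2 siRNA libraries called, on the strand of the gene. Capitals mark the AP-1 motif TGANTCA, which reads the same on both strands and was searched after the regions were known. AP-1 factors of the FOS and JUN families bind this motif.
KRT19 upstream (chr17:39686332-39686631, minus strand): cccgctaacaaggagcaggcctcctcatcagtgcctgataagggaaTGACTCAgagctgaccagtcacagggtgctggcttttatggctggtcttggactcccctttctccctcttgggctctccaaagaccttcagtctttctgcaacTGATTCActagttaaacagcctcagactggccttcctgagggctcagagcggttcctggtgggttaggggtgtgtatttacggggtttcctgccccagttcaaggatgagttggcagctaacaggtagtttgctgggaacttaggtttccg
VIM upstream (chr10:17258207-17258506, plus strand): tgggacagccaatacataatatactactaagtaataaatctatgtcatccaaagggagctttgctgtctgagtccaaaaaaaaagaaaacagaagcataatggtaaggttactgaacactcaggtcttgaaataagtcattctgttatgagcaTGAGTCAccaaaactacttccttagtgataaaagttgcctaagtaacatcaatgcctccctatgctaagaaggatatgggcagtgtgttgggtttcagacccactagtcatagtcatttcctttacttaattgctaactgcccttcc

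The whole KRT19 upstream region held 3 AP-1 motifs, or 1.34 per kb, and the VIM upstream region 4, or 0.92 per kb. These densities were above those of 93.9% and 84.4% of all regions. The other member regions tested, none past the threshold in the main fit, ranged from 0 at the ZEB1 start to 1.59 per kb near EPCAM. Over 32649 regions the mean was 0.455 per kb, and 67.0% of regions held at least 1. The NRF2 element TGACNNNGC was found 0 times in the KRT19 and 1 time in the VIM upstream region, and 63.7% of all regions held it. The E-box was found 3 times in each.

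Beyond the 10 genes, lists of 20 further epithelial and 20 further mesenchymal genes were examined at their starts. Of the epithelial list, 9 starts were called in all 6 libraries, 1 in some of them (the tight junction gene OCLN) and 10 in 0. Those called were the junction genes CLDN4, CLDN7, TJP1, DSP, JUP and PKP3, the keratin gene KRT7, the splicing factor gene ESRP2 and the transcription factor gene ELF3. Those with no call were CDH3, CLDN3, MARVELD3, ESRP1, GRHL2, OVOL1, OVOL2, RAB25, ST14 and SPINT1. As examples chosen after their values were seen, PKP3 stood at 93.5 to 99.4 and ELF3 at 96.6 to 98.0 in control libraries, while CLDN4 stood at 30.4 to 49.1.

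Of the mesenchymal list, 4 starts were called in all 6 libraries, 7 in some and 9 in 0. The 4 were AXL, a receptor kinase, TGFBI, an extracellular matrix protein, S100A4 and ACTA2, smooth muscle actin. AXL stood at 95.0 to 95.5 and TGFBI at 90.1 to 94.6 in control libraries. The S100A4 region also holds the starts of S100A3, S100A5 and S100A6, and the ACTA2 region also that of FAS, as the KRT7 region holds that of KRT86, so those calls cannot be assigned to 1 gene. The repressor genes SNAI1, TWIST1, TWIST2 and ZEB2 were called in 3, 1, 3 and 4 libraries, none of them replicate 1. The share called in all 6 was thus 9 of 20 and 4 of 20, beside 38.5% of all coding genes. With canonical starts alone it was 6 of 20 and 3 of 20, beside 36.9% of all coding genes. Of the 10 epithelial and 7 mesenchymal start regions tested, 0 rose and 0 fell (limma, lowest adjusted p = 0.12 and 0.30; 2 and 0 at an unadjusted p under 0.05), and the replicate block changed none of these calls.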

How the data were processed

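H3K27ac ChIP-seq was examined in 3 control siRNA and 3 NRF2 siRNA libraries of A549 cells, grouped by the labels. The authors trimmed and aligned reads to hg19 (bcl2fastq 2.15.0, cutadapt 1.15 and Bowtie2 2.2.6 per the submitters' processing notes), dropped reads of low mapping quality, called broad peaks per library with MACS2 2.1.0.20151222 and removed blacklisted peaks. The deposited lists give, for each peak, fold enrichment as a ratio, p-value and q-value as −log10, and an integer score. The authors' fold values served for ranking within a list only. Read counts per peak were not used, and which input served as background is not given in the sources used here.

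Gene and transcript positions were those of GENCODE 44 on GRCh37, with canonical starts by its Ensembl tag. The 24 chromosomes with peaks were all in that sequence, 0 of 202238 peaks ran past a chromosome end, and 136 lay on contigs. RefSeq promoter tables are on another build and were not used. Regions called in at least 3 of 6 libraries were ranked by highest fold, uncalled ones at the tied lowest rank, and normal scores were compared with limma 3.58.1 (lmFit, eBayes; R 4.3.3), adjusting p-values by Benjamini and Hochberg over all 32673 regions and a threshold of 0.05. The step was tested on simulated data. Libraries were paired by the numbers in the sample titles, and the study states no block. Deviations of same-numbered libraries from their group mean correlated (r = 0.398, 0.199 and 0.363 for pairs 1, 2 and 3). Replicate 1 differs from replicates 2 and 3 in both groups, and libraries of unlike number were not compared here. The correlations therefore cannot show that the numbers pair the libraries. The replicate block was an alternative to the fit without it. Other steps used Python 3.11.15, pandas 2.3.3 and scipy 1.17.1. Named regions were, per gene, the start region with the highest mean score, the best region without a coding start, and every region past the threshold. The members and lists were chosen with earlier results of these data known. PECAM1, on the endothelial list, is not in the lifted annotation. Some promoter windows are not reported here.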

Additional observations from a re-analysis of the deposited data

How the results depend on the processing

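Results were recomputed with the replicate block, equal list lengths (the 23885 strongest peaks of each list), both, a q-value of at most 1e-05, peaks up to 500 bp apart merged, other filters on regions, the length-weighted mean fold, other windows, and without each library. Starts at the canonical site only, or within 1 kb of it, were added after seeing the data. Of 322 recomputed values 271 stayed within the same call, side or spread. The replicate block gave 1 member region that fell, the FN1 exonic one, and changed no other call among the named regions except that of NQO1. The FN1 exonic fit rests in part on tied scores of uncalled NRF2 siRNA libraries. Member regions that rose were 0 with q at most 1e-05 and 0 among regions called in all 6 libraries, since the KRT19 and VIM upstream regions are then not tested, and ranged from 0 to 2 when 1 library was left out. Member regions found were 26 with equal list lengths, 22 with q at most 1e-05 and 84 within 100 kb, of which 11 with that q and 30 within 100 kb were called in all 6 libraries. Over the alternatives that tested them, the adjusted p of the KRT19 upstream region ran from 0.0016 to 0.070 and that of the VIM upstream region from 0.0032 to 0.091. The best EPCAM intronic region passed (0.94, limma adjusted p = 0.016) with the block and equal list lengths together.

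The epithelial excess at control starts lay between 50.5 and 77.9 percentile points when 1 control library was left out, was 84.8 with equal list lengths and 86.6 with q at most 1e-05. The median change of epithelial regions was 0.10 within 100 kb. Changes that turned sign when 1 library was left out, none of them past the threshold, ranged from -0.15 to 0.25 at the VIM start, -0.23 to 0.0086 at the ZEB1 start, -0.41 to 0.061 at the FN1 start, -0.29 to 0.22 in the best other FN1 region, -0.18 to 0.17 in the best CDH2 region and -0.0496 to 0.39 in the distal KRT19 region. The FN1 start and the best CDH2 region carry tied scores of uncalled regions in replicate 1. Over all regions, 2164 fell and 1868 rose with the replicate block, 1321 and 1185 with equal list lengths, 2041 and 2151 with both, 451 and 263 with q at most 1e-05, 369 and 341 among regions called in all 6 libraries, and 1125 and 427 with every region called in at least 1. Leaving out 1 library gave 0 to 1591 that fell and 0 to 747 that rose, with 0 of either without control replicate 2 or 3. The cause was not tested. Because the lists hold no read depth, an uncalled region cannot be told from one with too few reads.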

Other observations

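Among member regions, the change did not differ between siRNA 28 and siRNA 30 past the threshold in any of 28 tested (limma on 3 pairs with 1 residual degree of freedom, lowest adjusted p = 0.28), where 1 region had an unadjusted p under 0.05. Over all regions 0 passed, and 5040 had an unadjusted p under 0.05. This fit is too small to show that the siRNAs act alike.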
